A study of Mus musculus with 21 samples.

Results

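The 37 genes described here encode mouse enzymes that use pyridoxal phosphate, the active form of vitamin B6, as their cofactor. They were taken by symbol from the 78317 gene entries of the deposited tables, and where a symbol had more than 1 entry, as Gcat had, the one with the largest total count was used. RNA was sequenced from E14 mouse embryonic stem cells (ES cells, a line of the early embryo, able to form all its tissues) in 21 libraries, 7 groups of 3. The ES group was kept in standard culture, and 6 groups were taken at days 3, 5 and 7 of culture, with 20 µM of the vitamin pyridoxine (VB6) or with vehicle alone. The series title names endoderm differentiation as its subject, but the labels do not describe how the cells were made to differentiate. All groups are of 1 cell line with no stated genetic change, and the labels do not tie the 3 libraries of each group to separate cultures, so their spread may be technical.

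Cells take up pyridoxine, phosphorylate it with pyridoxal kinase (Pdxk) and turn it into pyridoxal phosphate. In most of these enzymes the cofactor is held by a lysine as an imine, and the amino group of the substrate takes the place of that lysine, after which the bond that breaks decides the reaction: transfer of the amino group, loss of carbon dioxide, cleavage of an aldol bond, or removal of sulfur. Glycogen phosphorylases differ in using the phosphate group of the cofactor. The RNA levels given here say nothing of how much enzyme was made or how much cofactor it carried.

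Total counts ran from 15882380 to 21629730 per library. The libraries of vehicle day 5 and VB6 day 7 stood apart: their fragment lengths, derived from the deposited values, were 227 ± 8.69 and 266 ± 7.77 nt, where the means of the remaining groups were 307 to 312 nt. Their ribosomal protein genes took 3.64 ± 0.168% and 3.52 ± 0.118% of counts, against 5.90 to 7.12% elsewhere, and mitochondrially encoded genes 4.33 ± 0.216% and 3.32 ± 0.272%, against 1.76 to 2.79%. Short fragments therefore lie on the vehicle side at day 5 and on the VB6 side at day 7, and at both days they cannot be told apart from VB6. For this reason each difference is also given, where it matters, from a fit corrected per library for the trend over gene GC content and length. Summed pluripotency markers (7 of the 8 listed genes, Tdgf1 not used here) went from 4537 to 4851 CPM (counts brought by edgeR to one library size) in ES cells to 400.4 to 442 in vehicle day 7. Visceral endoderm and hepatic markers (9 of 10 with counts in both, Afp at 0 in ES cells and Alb at 0 in vehicle day 7) went from 33.8 to 39.3 up to 4358 to 4639 CPM, and summed fibroblast markers from 25.1 to 30.6 (4 of 8 with counts) to 426 to 599.6 (8 of 8). The fibroblast markers did not all rise: of 7 tested, 4 were higher and 2 lower in vehicle day 7 than in vehicle day 3. The part of these changes in cell type in the member results was not tested, and in bulk RNA fewer cells of a type and less RNA per cell cannot be told apart.

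Expression of the pyridoxal phosphate enzymes was remodelled along the culture, and most members that moved fell. ES cells held the highest mean level for 16 of the 34 members that passed the filter on low counts, among them both branched-chain aminotransferases, both enzymes of transsulfuration and the mitochondrial serine hydroxymethyltransferase. The short-fragment groups, vehicle day 5 and VB6 day 7, held the lowest mean level for 10 and 9 members. The share of all genes highest or lowest in each group was not computed. Selenocysteine lyase, sphingosine phosphate lyase, serine racemase and kynureninase were among those that ended higher. Few members differed between VB6 and vehicle at day 3. Most members called at both day 5 and day 7 had opposite signs at the 2 days, as most genes of the whole table did, and at these days VB6 cannot be told apart from fragment length. Gad2, Alas2 and Sptlc3, with 38, 46 and 7 counts in all libraries together, were not tested.

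Every one of the 34 tested members differed among the 7 groups in edgeR's quasi-likelihood test at an adjusted p under 0.05, the threshold for a call throughout, as did 93.7% of the 18901 genes tested. From ES to vehicle day 3, 29 were called, 8 higher and 21 lower, where 64.9% of all genes were called (33.1% higher and 31.8% lower). The median log2 fold change of the members was −0.27, and that of all genes 0.01. From vehicle day 3 to day 7, 31 were called, 13 higher and 18 lower, with 67.4% of all genes called (34.3% higher, 33.1% lower) and a median of −0.31 for the members against −0.01 for all genes. From VB6 day 3 to day 5, 27 were called, 12 higher and 15 lower, with 56.2% of all genes called (29.9% higher, 26.4% lower) and medians of −0.13 and 0.02. None of these 3 comparisons uses the short-fragment libraries, and with the trend correction 26, 30 and 24 of the calls held in the same direction. The last 2 comparisons share no library: 11 members rose in both (84.6% and 91.7% of those that rose in each) and 15 fell in both (83.3% and 100%), with 0 called in opposite directions. Over all genes, 73.7 and 84.7% of those that rose and 67.7 and 85% of those that fell in each did so in both, and 1.56% of the genes called in both had opposite directions.

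**Figure D1:**
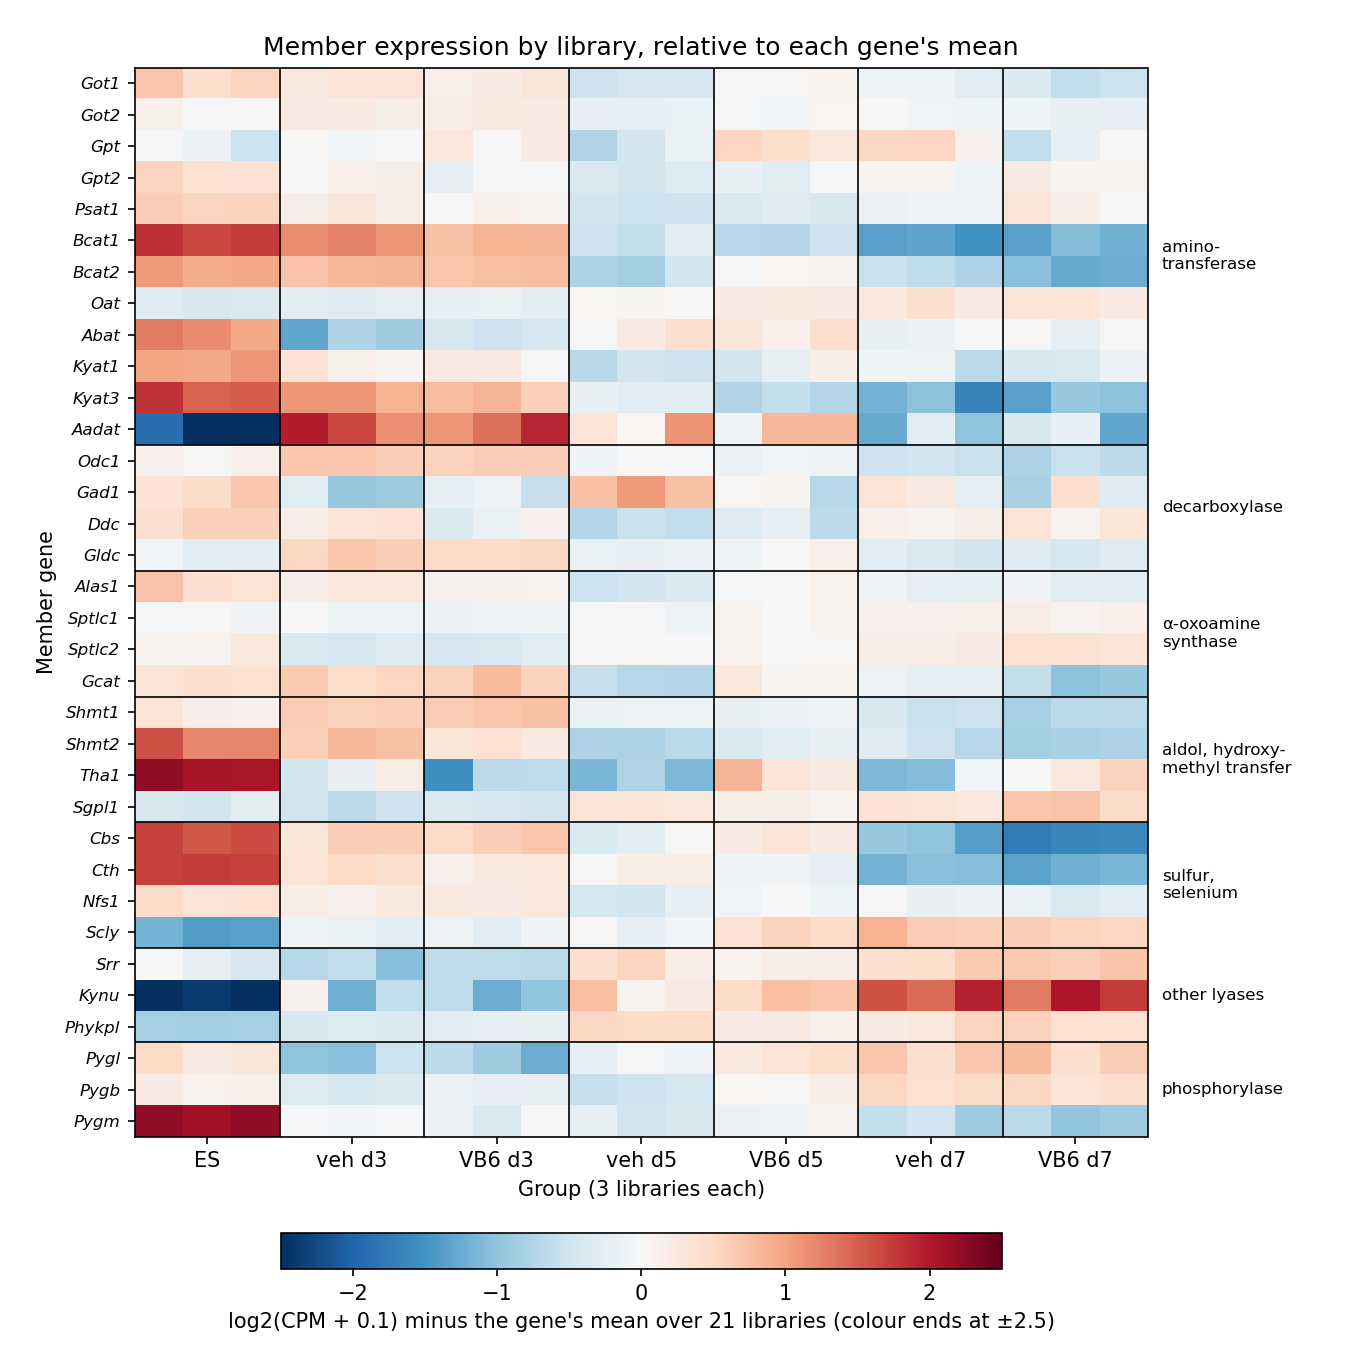
Expression of the 34 tested members in the 21 libraries (3 per group, columns), as log2(CPM + 0.1) minus the gene's mean over all libraries, with members in rows by reaction class; red is above and blue below the gene's mean, and colours end at ±2.5. Pygm, Tha1, Bcat1, Cth, Cbs and Kyat3 are the members farthest above their mean in the ES columns, and Kynu and Scly are red in the day 7 columns.

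For 33 of the 37 members RefSeq gave 38 start sites in build GRCm38.p6, and the 250 bases before each were searched on both strands. The windows shown belong to 3 members that fell in both of the comparisons without shared libraries (Bcat1, Kyat3 and Cbs) and 3 that rose in both (Scly, Sgpl1 and Srr), chosen after their values were seen, to show what sequence lies at genes that moved in opposite directions. Capitals mark CCAAT, the box bound by NF-Y (ATTGG on the other strand), GGGCGG, the GC box bound by Sp1 (CCGCCC on the other strand), TATAAA, the TATA box, and CACGTG, the E-box; TGATGNAA, the amino acid response element, was searched too. Bcat1 lies at chr6:145076158-145076407 (minus strand), Kyat3 at chr3:142700798-142701047 (plus), Cbs at chr17:31637206-31637455 (minus), Scly at chr1:91298088-91298337 (plus), Sgpl1 at chr10:61147685-61147934 (minus) and Srr at chr11:74925949-74926198 (minus).
Bcat1: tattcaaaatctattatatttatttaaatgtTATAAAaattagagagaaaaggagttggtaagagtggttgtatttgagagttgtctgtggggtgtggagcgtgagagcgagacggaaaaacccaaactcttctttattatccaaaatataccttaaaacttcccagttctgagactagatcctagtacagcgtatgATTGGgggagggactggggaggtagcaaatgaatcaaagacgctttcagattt
Kyat3: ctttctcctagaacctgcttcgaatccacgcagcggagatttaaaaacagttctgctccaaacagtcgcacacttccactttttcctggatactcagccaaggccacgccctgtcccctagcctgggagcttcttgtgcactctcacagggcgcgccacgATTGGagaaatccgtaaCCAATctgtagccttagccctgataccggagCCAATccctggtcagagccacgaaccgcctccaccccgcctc
Cbs: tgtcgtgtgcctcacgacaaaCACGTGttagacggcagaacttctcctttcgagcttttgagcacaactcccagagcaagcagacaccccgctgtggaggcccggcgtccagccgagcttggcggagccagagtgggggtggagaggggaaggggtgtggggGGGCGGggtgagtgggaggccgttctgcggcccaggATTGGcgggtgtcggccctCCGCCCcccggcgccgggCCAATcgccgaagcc
Scly: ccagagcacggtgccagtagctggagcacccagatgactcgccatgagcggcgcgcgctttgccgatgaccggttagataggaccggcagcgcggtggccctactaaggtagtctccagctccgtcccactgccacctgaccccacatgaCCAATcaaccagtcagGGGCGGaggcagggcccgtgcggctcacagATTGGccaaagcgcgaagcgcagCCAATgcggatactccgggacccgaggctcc
Sgpl1: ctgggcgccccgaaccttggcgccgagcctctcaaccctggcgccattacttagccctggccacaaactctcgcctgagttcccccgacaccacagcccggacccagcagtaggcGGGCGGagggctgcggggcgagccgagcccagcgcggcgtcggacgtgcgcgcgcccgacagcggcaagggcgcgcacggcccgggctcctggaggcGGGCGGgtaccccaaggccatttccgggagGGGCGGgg
Srr: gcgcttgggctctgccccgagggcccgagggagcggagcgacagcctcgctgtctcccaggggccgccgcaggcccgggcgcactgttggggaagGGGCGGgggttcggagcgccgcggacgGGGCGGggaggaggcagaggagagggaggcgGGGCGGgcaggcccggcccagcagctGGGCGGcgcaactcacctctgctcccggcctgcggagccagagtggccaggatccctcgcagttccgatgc

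Among the fallers, the Bcat1 window shown held 1 CCAAT and 1 TATAAA and had a GC content of 37.6% (a second Bcat1 start site, with a window at chr6:145048813-145049062, held none of the 5 motifs and had 56.4% GC). The Kyat3 window held 3 CCAAT (56.0% GC), and the Cbs window 2 CCAAT, 2 GGGCGG and the CACGTG (68.0% GC). Among the risers, Scly held 3 CCAAT and 1 GGGCGG, with a GC content of 65.2%, below that of Cbs. Sgpl1 and Srr held only GGGCGG of the 5 motifs, 3 and 4 copies, with GC contents of 74.8% and 76.8%. Of the 38 windows of members, 14 held a CCAAT, 19 a GGGCGG, 6 a TATAAA, 1 a CACGTG (Cbs) and 1 a TGATGNAA (Got1). The counts were the same over the 33 members. Of 32851 windows of all genes, 33.85% held a CCAAT, 32.74% a GGGCGG, 12.37% a TATAAA, 6.021% a CACGTG and 3.452% a TGATGNAA. Windows of other members went against the order of GC content in those shown. Odc1 and Nfs1, which fell in both comparisons, had 80.0% and 70.8% GC, Odc1 with 4 GGGCGG and 0 CCAAT. Oat and Sptlc2, which rose in both, had 60.0% and 55.2% GC, with 2 and 3 CCAAT. The windows shown therefore do not set fallers apart from risers, and sequence was not compared over all of them. A match describes the letters of the window only.

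The aminotransferases move an amino group from an amino acid to a keto acid. Of those highest in ES cells, Bcat1 and Kyat3 had the widest range of mean CPM over the groups, 8.85 and 7.44 times. The largest falls in single steps were those of Abat to vehicle day 3 and of Aadat from there to day 7. Of 12 tested, 8 fell and 2 rose from ES to vehicle day 3, and 8 fell and 3 rose from vehicle day 3 to day 7. Bcat1 (ENSMUSG00000030268, chromosome 6, 144993835 to 145076184; mm10, as for all genes here), the cytosolic enzyme that starts the breakdown of leucine, isoleucine and valine, stood at 261, 235 and 249 CPM in ES cells. Vehicle libraries held Bcat1 at 167, 177 and 159 CPM at day 3, 51.6, 48.9 and 60.7 at day 5 and 28.9, 29.6 and 25.8 at day 7. With VB6, Bcat1 stood at 123, 135 and 133 CPM at day 3, 45.2, 44.5 and 51.4 at day 5 and 28.7, 34.7 and 32.1 at day 7. Each later day lay wholly below the earlier one in both arms, and at day 3 the VB6 libraries lay below all vehicle libraries. Bcat1 fell by 0.57 ± 0.08 (log2, SE, n = 3 per group) to vehicle day 3 (adjusted p = 6.23e-07), and the changes were −2.58 ± 0.09 from there to day 7 and −1.47 ± 0.08 from VB6 day 3 to day 5.

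Bcat2 (ENSMUSG00000030826, chromosome 7, 45570153 to 45589711), its mitochondrial counterpart, read 145, 132 and 136 CPM in ES cells. Vehicle libraries held Bcat2 at 115, 122 and 126 CPM at day 3, 40.3, 38.1 and 50.8 at day 5 and 47.1, 44.5 and 41.0 at day 7. With VB6, Bcat2 stood at 113, 115 and 119 CPM at day 3, 67.7, 72.5 and 74.0 at day 5 and 33.8, 29.0 and 29.6 at day 7. It kept most of its level to day 3 and then dropped, with VB6 above all vehicle libraries at day 5 and below them at day 7. From vehicle day 3 to day 7 it fell by 1.45 ± 0.08 (log2), and from ES to vehicle day 3 the difference of −0.19 ± 0.08 was not called in every alternative. Kyat3 (ENSMUSG00000040213, chromosome 3, 142701051 to 142746870), which transaminates kynurenine and glutamine, was measured at 38.1, 30.3 and 31.4 CPM in ES cells. Vehicle libraries held Kyat3 at 23.2, 23.1 and 20.0 CPM at day 3, 9.56, 8.98 and 9.06 at day 5 and 4.76, 5.31 and 3.33 at day 7. With VB6, Kyat3 stood at 18.6, 19.6 and 16.4 CPM at day 3, 6.43, 7.15 and 6.50 at day 5 and 4.16, 5.57 and 5.26 at day 7. Its levels lay lower at each day of the vehicle course without overlap between days, with −0.59 ± 0.11 (log2) to day 3 and −2.31 ± 0.14 from day 3 to day 7, and the day 5 VB6 libraries lay below the vehicle libraries. Kyat1, the related enzyme, fell by 0.84 ± 0.15 to vehicle day 3.

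Psat1 (ENSMUSG00000024640, chromosome 19, 15904678 to 15947337), which makes phosphoserine on the path to serine, was the aminotransferase with the highest TPM in ES cells, at 213, and read 373, 361 and 366 CPM there. Vehicle libraries held Psat1 at 271, 301 and 272 CPM at day 3, 176, 168 and 171 at day 5 and 220.0, 231 and 223 at day 7. With VB6, Psat1 stood at 248, 266 and 256 CPM at day 3, 189, 195 and 185 at day 5 and 306, 273 and 247 at day 7. In CPM it was lowest at day 5 in both arms and higher again at day 7, where all VB6 libraries lay above all vehicle libraries. In TPM the vehicle means were 147, 146 and 135 at days 3, 5 and 7, lowest at day 7, and the day 5 libraries among them are those with short fragments. The aspartate aminotransferases of the malate-aspartate shuttle moved less: from ES to vehicle day 3 cytosolic Got1 fell by 0.25 ± 0.07, while mitochondrial Got2 was at 0.16 ± 0.05, a call not held in every alternative, and to day 7 they were at −0.48 ± 0.07 and −0.27 ± 0.05. Oat, the ornithine aminotransferase, went from 88.9 ± 2.56 CPM in ES cells (SD, n = 3) to 140.4 ± 9.25 in vehicle day 7 and rose by 0.58 ± 0.05 between vehicle days 3 and 7. Abat, which breaks down the transmitter GABA, fell by 2.15 ± 0.14 to vehicle day 3, from 15.2 ± 1.82 to 3.42 ± 0.630 CPM, and then rose by 0.85 ± 0.16 to day 7.

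Aadat, an enzyme of lysine breakdown, moved the other way from most of its class. It had 2 counts in the 3 ES libraries together and 118 in vehicle day 3, a ratio of 64.3 (95% Clopper-Pearson interval 17.4 to 537, for counting error only). It then fell by 2.71 ± 0.46 from vehicle day 3 to day 7. The alanine aminotransferases stood at 4.90 ± 0.865 (Gpt) and 53.1 ± 4.02 CPM (Gpt2) in ES cells, and Gpt2 fell by 0.34 ± 0.08 to vehicle day 3 while Gpt was at 0.21 ± 0.18 (adjusted p = 0.30).

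**Figure D2:**
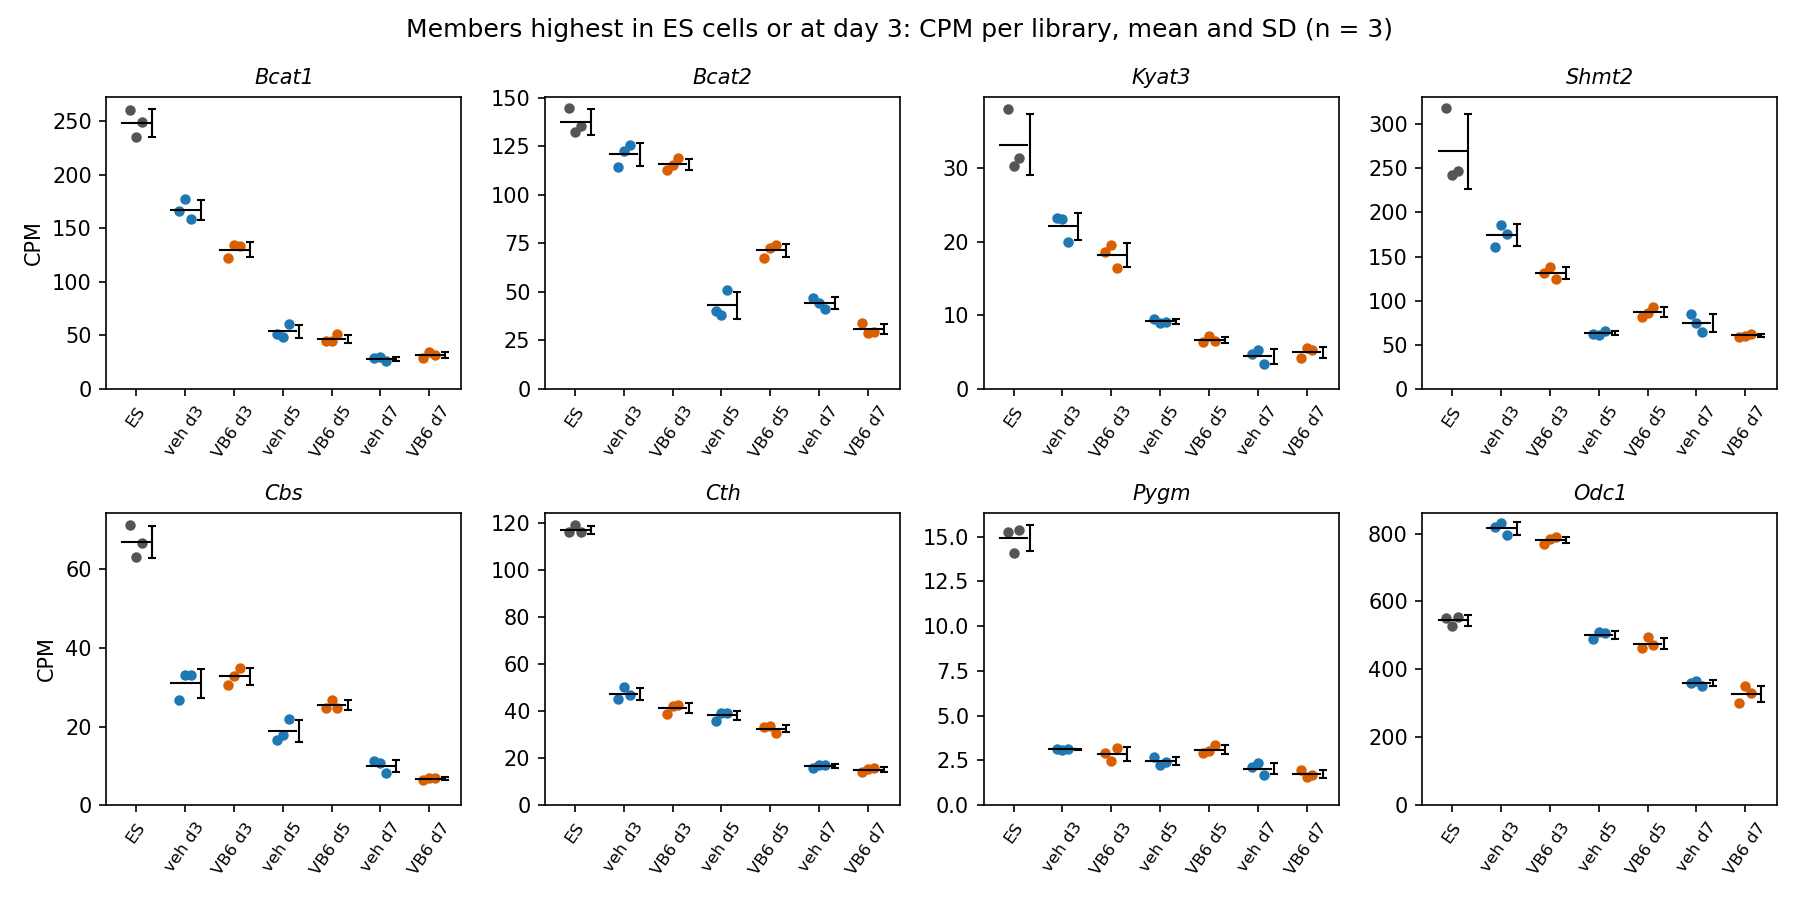
CPM of 8 members that were highest in ES cells or at day 3, in each library (points, grey ES, blue vehicle, orange VB6), with the group mean (line) and SD (bar, n = 3); each axis starts at 0. Bcat1 goes from 235 to 261 CPM in ES cells to 25.8 to 29.6 in vehicle day 7, and Odc1 peaks at day 3.

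The most abundant decarboxylases, Odc1 and Gldc, peaked at day 3. Odc1 (ENSMUSG00000011179, chromosome 12, 17544794 to 17551505), ornithine decarboxylase, the entry enzyme of polyamine synthesis, read 552, 527 and 555 CPM in ES cells. Vehicle libraries held Odc1 at 821, 832 and 795 CPM at day 3, 488, 510.4 and 507 at day 5 and 361, 367 and 352 at day 7. With VB6, Odc1 stood at 769.8, 785 and 789 CPM at day 3, 462, 495 and 470.5 at day 5 and 302, 349.9 and 329 at day 7. All day 3 libraries lay above all ES libraries, and all day 7 libraries below them. The gain to vehicle day 3 was 0.58 ± 0.05 (log2) and the change from there to day 7 −1.18 ± 0.05. Odc1 also had the highest TPM of all members in each of the 7 groups, from 264 in vehicle day 7 to 523 in vehicle day 3. Its share of the summed TPM of the 37 members was 18.4 and 26.9% in these groups, and over all groups ran from 16.1% in VB6 day 7 to 27.6% in VB6 day 3.

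Gldc (ENSMUSG00000024827, chromosome 19, 30098447 to 30175429), the decarboxylase of the glycine cleavage system, was at 310.3, 271 and 268 CPM in ES cells. Vehicle libraries held Gldc at 464, 526 and 496 CPM at day 3, 292, 281 and 296 at day 5 and 267, 249 and 236 at day 7. With VB6, Gldc stood at 462, 462 and 467 CPM at day 3, 302, 328 and 357 at day 5 and 259, 239 and 261 at day 7. Like Odc1 it was highest at day 3, where no library overlapped any other day, with 0.81 ± 0.07 from ES to vehicle day 3 and −0.98 ± 0.07 from there to day 7. Ddc (ENSMUSG00000020182, chromosome 11, 11814101 to 11898144), which makes dopamine and serotonin from their precursors, was low, at 7.12, 8.04 and 8.08 CPM in ES cells. Vehicle libraries held Ddc at 5.95, 6.62 and 6.84 CPM at day 3, 3.13, 3.57 and 3.41 at day 5 and 5.76, 5.54 and 5.87 at day 7. With VB6, Ddc stood at 4.10, 4.67 and 5.73 CPM at day 3, 4.19, 4.56 and 3.31 at day 5 and 6.63, 5.62 and 6.59 at day 7. The vehicle libraries of day 5 held less Ddc than those of days 3 and 7, and neither vehicle step was called (−0.26 ± 0.13 and −0.18 ± 0.14). Gad1, which makes GABA from glutamate, fell by 1.24 ± 0.28 to vehicle day 3, between 3.47 ± 0.412 and 1.47 ± 0.410 CPM. Summed neural markers were at 103 to 113 CPM in ES cells and 57.9 to 70.5 in vehicle day 3 (8 of 8 genes with counts there, Dcx at 0 in ES cells). Of 7 tested neural markers, 2 rose and 4 fell between these groups, and their part in the Gad1 and Ddc values was not tested.

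The alpha-oxoamine synthases join an amino acid to an acyl-coenzyme A, the first step of heme and sphingolipid synthesis. Gcat (ENSMUSG00000006378, chromosome 15, 79030874 to 79038353), which splits the product of threonine oxidation into glycine and acetyl-coenzyme A, read 48.8, 50.8 and 50.2 CPM in ES cells. Vehicle libraries held Gcat at 60.6, 51.8 and 55.5 CPM at day 3, 25.7, 23.3 and 23.0 at day 5 and 35.3, 33.2 and 33 at day 7. With VB6, Gcat stood at 56.9, 66.5 and 57.5 CPM at day 3, 46.9, 40.5 and 40.6 at day 5 and 25.3, 18.7 and 19.9 at day 7. The arms overlapped at day 3, VB6 lay above vehicle at day 5 and below it at day 7, and the vehicle libraries fell by 0.73 ± 0.09 from day 3 to day 7. A second entry with the symbol Gcat shares 220 exonic bases on the same strand, so counts may be split between the entries. Sptlc2 (ENSMUSG00000021036, chromosome 12, 87305058 to 87388355), the catalytic subunit of serine palmitoyltransferase, was at 89.8, 90.0 and 101 CPM in ES cells. Vehicle libraries held Sptlc2 at 64.8, 63.0 and 67.2 CPM at day 3, 85.1, 85.3 and 83.0 at day 5 and 93.5, 94.6 and 96.4 at day 7. With VB6, Sptlc2 stood at 63.1, 64.5 and 67.9 CPM at day 3, 89.7, 85.3 and 86.0 at day 5 and 109, 109 and 107 at day 7. It dipped at day 3 (−0.53 ± 0.05 in vehicle) and then rose by 0.54 ± 0.05 to vehicle day 7. Its partner Sptlc1 had the largest p of the members in the test over the 7 groups (adjusted p = 0.00209), with group means from 31.2 ± 0.824 in VB6 day 3 to 36.8 ± 1.36 CPM in VB6 day 7.

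Alas1 (ENSMUSG00000032786, chromosome 9, 106233455 to 106248654), the housekeeping enzyme that opens heme synthesis, was at 49.6, 40.2 and 38.4 CPM in ES cells. Vehicle libraries held Alas1 at 33.3, 36.4 and 36.5 CPM at day 3, 20.7, 21.7 and 23.6 at day 5 and 28.5, 25.9 and 25.6 at day 7. With VB6, Alas1 stood at 32.6, 32.5 and 32.1 CPM at day 3, 29.6, 30.5 and 32.1 at day 5 and 28.4, 24.7 and 24.9 at day 7. The lowest values were those of vehicle day 5, below every other library, and from vehicle day 3 to day 7 it fell by 0.41 ± 0.09. Alas1 shares 351 exonic bases with an antisense gene, and the sources used here do not give whether counting used the strand. The erythroid enzyme Alas2 stayed at or below 0.281 ± 0.103 CPM (the mean of VB6 day 7), where a count of 0 allows up to 0.139 to 0.189 CPM depending on the library, and embryonic erythroid markers summed to 4.71 to 7.03 CPM in ES cells and 0.844 to 1.70 in VB6 day 7, with Hbb-y at 0 in every group.

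Among enzymes that cleave an aldol bond or move a hydroxymethyl group, Shmt2 (ENSMUSG00000025403, chromosome 10, 127517123 to 127522444), which feeds the mitochondrial folate pool from serine, had the highest TPM in ES cells, and read 318, 243 and 247 CPM there. Vehicle libraries held Shmt2 at 161, 186 and 176 CPM at day 3, 61.9, 61.6 and 66.2 at day 5 and 84.6, 74.3 and 64.6 at day 7. With VB6, Shmt2 stood at 131, 138 and 124 CPM at day 3, 82.0, 86.5 and 93.3 at day 5 and 58.8, 60.5 and 62.5 at day 7. It fell from ES to day 3 and again to day 5 without overlap, and the day 3 VB6 libraries lay below the vehicle libraries. It fell by 0.63 ± 0.09 to vehicle day 3 and fell by 1.23 ± 0.09 from there to day 7 (adjusted p = 4.47e-11). Shmt1 (ENSMUSG00000020534, chromosome 11, 60788104 to 60811718), its cytosolic counterpart, was at 119, 106 and 101 CPM in ES cells. Vehicle libraries held Shmt1 at 146, 139.7 and 142 CPM at day 3, 83.2, 85.6 and 85.5 at day 5 and 71.2, 63.8 and 65.6 at day 7. With VB6, Shmt1 stood at 145, 151 and 157 CPM at day 3, 82.5, 84.4 and 87.2 at day 5 and 53.0, 58.9 and 58.7 at day 7. It rose to day 3, by 0.40 ± 0.06 in vehicle, where Shmt2 fell, and then dropped by 1.10 ± 0.06 to vehicle day 7. The TPM ratio of Shmt2 to Shmt1 was 2.61 ± 0.0994 in ES cells and 1.39 ± 0.135 in vehicle day 3, with no overlap, and 1.32 ± 0.154 in vehicle day 7.

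Sgpl1 (ENSMUSG00000020097, chromosome 10, 61098642 to 61147703), which ends sphingolipid breakdown by splitting sphingosine 1-phosphate, read 142, 135 and 154 CPM in ES cells. Vehicle libraries held Sgpl1 at 131, 118 and 129.6 CPM at day 3, 235, 235 and 223 at day 5 and 238, 234 and 225 at day 7. With VB6, Sgpl1 stood at 143, 139.8 and 133 CPM at day 3, 205, 205 and 197 at day 5 and 302, 304 and 261 at day 7. All libraries of days 5 and 7 lay above all earlier ones, with VB6 below vehicle at day 5 and above it at day 7. From vehicle day 3 to day 7 it rose by 0.88 ± 0.06 (adjusted p = 7.57e-12), and from VB6 day 3 to day 5 by 0.55 ± 0.06. Tha1 (ENSMUSG00000017713, chromosome 11, 117867952 to 117873481), a threonine aldolase, was at 2.04, 1.83 and 1.78 CPM in ES cells. Vehicle libraries held Tha1 at 0.235, 0.301 and 0.421 CPM at day 3, 0.108, 0.173 and 0.112 at day 5 and 0.111, 0.117 and 0.338 at day 7. With VB6, Tha1 stood at 0.0594, 0.193 and 0.198 CPM at day 3, 0.727, 0.480 and 0.437 at day 5 and 0.362, 0.450 and 0.584 at day 7. After ES it stood under 1 CPM in every library, from 108 counts in the 3 ES libraries together to 17 in vehicle day 3, a ratio of 0.172 (95% Clopper-Pearson interval 0.0964 to 0.288). A Tha1 antisense gene shares 184 exonic bases with it.

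Of the 4 enzymes of sulfur and selenium transfer, 3 fell and 1 rose both from ES to vehicle day 3 and from there to day 7. Cth (ENSMUSG00000028179, chromosome 3, 157894248 to 157925077), which releases cysteine from cystathionine, was at 117, 119 and 116 CPM in ES cells. Vehicle libraries held Cth at 45.1, 50.3 and 46.9 CPM at day 3, 36.0, 39.3 and 39.4 at day 5 and 15.7, 17.3 and 17.0 at day 7. With VB6, Cth stood at 39.0, 42.3 and 42.7 CPM at day 3, 33.2, 33.6 and 30.7 at day 5 and 14, 15.5 and 16.0 at day 7. Each day lay below the one before in both arms, without overlap, and VB6 lay below vehicle at days 3 and 5. It fell by 1.31 ± 0.06 to vehicle day 3 and fell by 1.51 ± 0.07 from there to day 7. Cbs (ENSMUSG00000024039, chromosome 17, 31608894 to 31637238), which makes cystathionine from homocysteine and serine one step before Cth, read 71.2, 63.1 and 66.8 CPM in ES cells. Vehicle libraries held Cbs at 26.7, 33 and 33.2 CPM at day 3, 16.6, 18.0 and 21.9 at day 5 and 11.2, 10.7 and 8.24 at day 7. With VB6, Cbs stood at 30.6, 32.9 and 34.8 CPM at day 3, 24.8, 26.8 and 24.7 at day 5 and 6.33, 6.86 and 6.96 at day 7. It followed Cth downward, with −1.11 ± 0.10 to vehicle day 3 and −1.63 ± 0.11 from there to day 7, and at day 7 the VB6 libraries lay below the vehicle libraries. Nfs1, the desulfurase that supplies sulfur to iron-sulfur clusters, fell by 0.30 ± 0.08 from vehicle day 3 to day 7.

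Scly (ENSMUSG00000026307, chromosome 1, 91298338 to 91321075), which returns selenium from selenocysteine, moved the other way. ES libraries held Scly at 12.2, 10.5 and 10.8 CPM. Vehicle libraries held Scly at 25.7, 25.0 and 22.9 CPM at day 3, 28.5, 24.2 and 26.5 at day 5 and 51.3, 43.5 and 42.1 at day 7. With VB6, Scly stood at 25.4, 23.2 and 26.1 CPM at day 3, 35.7, 41.6 and 39.1 at day 5 and 43.0, 40.9 and 40.6 at day 7. It lay higher at day 3 than in any ES library, by 1.13 ± 0.10 (log2) in vehicle, and rose by 0.90 ± 0.09 from vehicle day 3 to day 7. The VB6 libraries of day 5 lay above the vehicle libraries of that day, and at days 3 and 7 the arms overlapped.

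Racemase, hydrolase and phospho-lyase members all rose between days 3 and 7 in vehicle. Srr (ENSMUSG00000001323, chromosome 11, 74906359 to 74925948), which makes D-serine, read 6.54, 5.64 and 4.98 CPM in ES cells. Vehicle libraries held Srr at 4.06, 4.33 and 3.16 CPM at day 3, 8.86, 9.96 and 7.50 at day 5 and 9.03, 9.16 and 10.5 at day 7. With VB6, Srr stood at 4.28, 4.29 and 4.15 CPM at day 3, 7.16, 7.53 and 7.50 at day 5 and 10.7, 10.1 and 11.1 at day 7. Levels at days 5 and 7 lay above all ES and day 3 libraries, with −0.58 ± 0.14 to vehicle day 3 and 1.32 ± 0.14 from there to day 7. Srr shares 616 exonic bases with Tsr1 on the opposite strand, and without strand the reads of the shared bases cannot be told apart. Phykpl (ENSMUSG00000020359, chromosome 11, 51584757 to 51604489), which breaks down phosphohydroxylysine, which comes from the hydroxylysine of collagen, was at 8.85, 8.72 and 8.86 CPM in ES cells. Vehicle libraries held Phykpl at 12, 12.5 and 12.3 CPM at day 3, 22.7, 22.1 and 21.9 at day 5 and 18.6, 19.4 and 23.4 at day 7. With VB6, Phykpl stood at 12.9, 13.5 and 13.9 CPM at day 3, 18.2, 18.6 and 17.3 at day 5 and 23.6, 20.9 and 20.7 at day 7. It rose by 0.48 ± 0.09 and 0.73 ± 0.09 over the vehicle steps, and at day 5 VB6 lay below vehicle. Phykpl overlaps Hnrnpab by 499 exonic bases on the opposite strand. Summed fibroblast markers went from 24.9 to 27.0 CPM in vehicle day 3 to 426 to 599.6 in day 7, with 4 of 7 tested higher and 2 lower. The part of these markers in the Phykpl values was not tested.

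Kynu (ENSMUSG00000026866, chromosome 2, 43555329 to 43682715), which cuts kynurenine on the way from tryptophan to NAD, read 0, 0.0522 and 0 CPM in ES cells, 1 count in all. Vehicle libraries held Kynu at 0.765, 0.241 and 0.421 CPM at day 3, 1.24, 0.749 and 0.839 at day 5 and 2.33, 2.04 and 2.93 at day 7. With VB6, Kynu stood at 0.416, 0.241 and 0.297 CPM at day 3, 1.01, 1.25 and 1.19 at day 5 and 1.87, 3.15 and 2.6 at day 7. It rose by 2.34 ± 0.35 from vehicle day 3 to day 7, where all libraries lay above all earlier ones, and by 1.86 ± 0.40 from VB6 day 3 to day 5. Against ES the vehicle day 3 libraries had 25 counts, a ratio of 27.2 (95% Clopper-Pearson interval 4.46 to 1119). The visceral endoderm and hepatic markers went up over the same days (503 to 584 CPM in vehicle day 3 and 4358 to 4639 in vehicle day 7), and their part in the Kynu values was not tested.

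**Figure D3:**
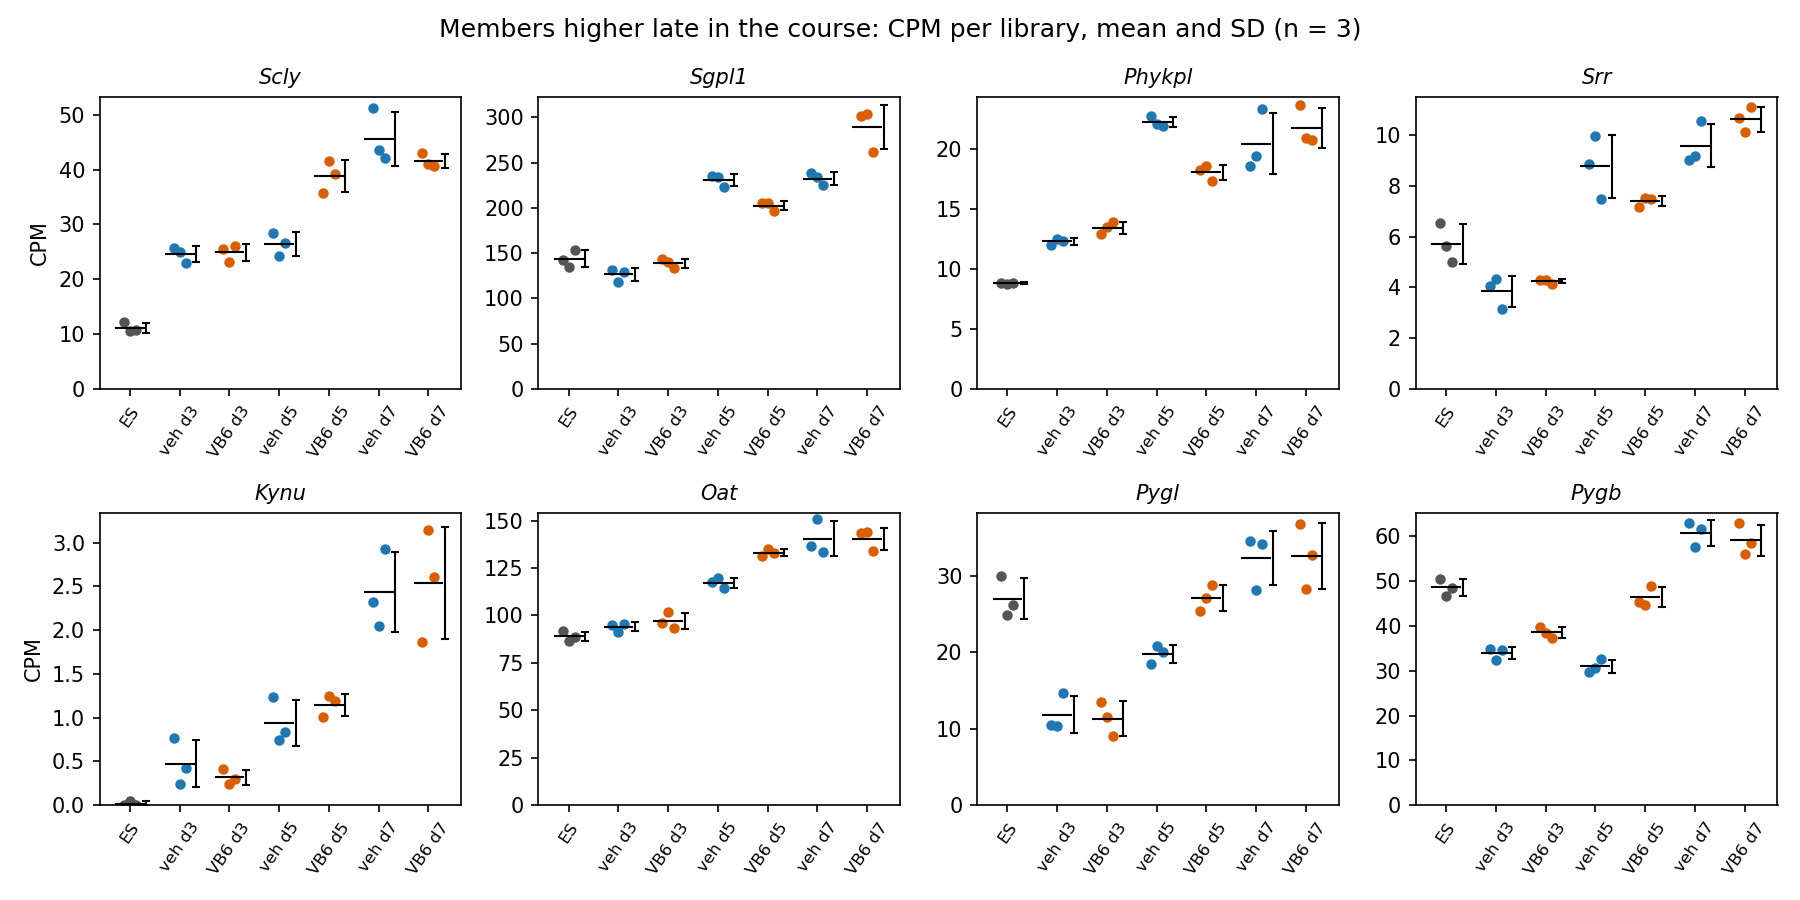
CPM of 8 members that were higher late in the culture, in each library (points, grey ES, blue vehicle, orange VB6), with the group mean (line) and SD (bar, n = 3); each axis starts at 0. Scly goes from 10.5 to 12.2 CPM in ES cells to 42.1 to 51.3 in vehicle day 7, while Pygl is lowest at day 3 in both arms and Pygb at day 5 in the vehicle arm and at day 3 in the VB6 arm.

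Glycogen phosphorylases release glucose 1-phosphate from glycogen, and all 3 tissue forms fell from ES to vehicle day 3. Pygl and Pygb then rose to vehicle day 7, while Pygm did not on counts. Pygm (ENSMUSG00000032648, chromosome 19, 6384399 to 6398459), the muscle form, was at 15.3, 14.1 and 15.4 CPM in ES cells. Vehicle libraries held Pygm at 3.12, 3.07 and 3.16 CPM at day 3, 2.70, 2.25 and 2.41 at day 5 and 2.10, 2.33 and 1.69 at day 7. With VB6, Pygm stood at 2.91, 2.46 and 3.21 CPM at day 3, 2.91, 3.02 and 3.37 at day 5 and 1.99, 1.57 and 1.70 at day 7. The ES libraries stood far above the rest, and to vehicle day 3 it fell by 2.26 ± 0.14 (adjusted p = 8.62e-13). The further difference from vehicle day 3 to day 7 was −0.61 ± 0.16 on counts but 0.19 on the log2(TPM + 1) scale. Muscle markers had all 8 genes with counts in ES cells and summed to 18.1 to 23.8 CPM there and 33.8 to 43.2 in vehicle day 3. Of 6 tested, 3 were higher and 1 lower in vehicle day 3.

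Pygb (ENSMUSG00000033059, chromosome 2, 150786735 to 150831758), the brain form, read 50.6, 46.7 and 48.4 CPM in ES cells. Vehicle libraries held Pygb at 34.8, 32.4 and 34.5 CPM at day 3, 29.6, 30.7 and 32.5 at day 5 and 63.0, 57.5 and 61.5 at day 7. With VB6, Pygb stood at 39.8, 38.4 and 37.3 CPM at day 3, 45.4, 44.8 and 48.9 at day 5 and 62.8, 56.0 and 58.6 at day 7. It fell to vehicle day 3 by 0.52 ± 0.06 and rose by 0.84 ± 0.06 to day 7 above all ES libraries, and the VB6 libraries lay above vehicle at days 3 and 5. Pygl (ENSMUSG00000021069, chromosome 12, 70190811 to 70231488), the liver form, was at 30.0, 24.9 and 26.1 CPM in ES cells. Vehicle libraries held Pygl at 10.5, 10.3 and 14.6 CPM at day 3, 18.5, 20.8 and 20.0 at day 5 and 34.5, 28.2 and 34.1 at day 7. With VB6, Pygl stood at 13.5, 11.5 and 9.0 CPM at day 3, 25.3, 27.1 and 28.8 at day 5 and 36.8, 28.3 and 32.7 at day 7. It fell by 1.19 ± 0.14 and then rose by 1.44 ± 0.14, with VB6 above vehicle at day 5. Of the summed TPM of the 3 forms, Pygm held 21.6 ± 1.70% in ES cells and 2.93 ± 0.835% in VB6 day 7, while Pygb held the largest share in every group, from 44.1 ± 2.32% in ES cells to 63.3 ± 4.31% in VB6 day 3.

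At day 3, 2 of 34 members were called, both lower with VB6 (10 at an unadjusted p under 0.05), where 4.26% of all genes were called (1.49% higher and 2.77% lower). Bcat1 fell by 0.36 ± 0.08 (log2; adjusted p = 0.00858) and Shmt2 fell by 0.41 ± 0.09 (adjusted p = 0.0120), each in 3 of 3 VB6 libraries below all 3 vehicle libraries. Both calls were lost without the second vehicle library or without the first VB6 library, and on the log2(TPM + 1) scale, and that of Shmt2 also without the third VB6 library. Neither rests on the short-fragment libraries. Abat was at 0.53 ± 0.16 (adjusted p = 0.0570), Ddc at −0.42 ± 0.14 (0.0895), Cth at −0.20 ± 0.07 (0.0837) and Pygb at 0.18 ± 0.07 (0.113), none of them called. With the trend correction these 4 were called beside Bcat1 and Shmt2, in the same directions, making 2 higher and 4 lower. Of all genes called in the corrected fit, 38.2% were higher. The member median was −0.06 and that of all genes −0.01. Of 7 pluripotency markers, 3 were lower with VB6 at day 3 and 0 higher, with sums of 2291 to 2350 CPM against 2490 to 2758 in vehicle, and their part in the Bcat1 and Shmt2 values was not tested.

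At day 5, 24 of 34 members were called, 18 higher with VB6 and 6 lower, where 56.7% of all genes were called (31.2% higher and 25.5% lower). The vehicle libraries of this comparison are those with the shortest fragments. Cell type markers moved too: 6 of 7 pluripotency markers were higher and 1 lower, with sums of 966 to 986 CPM with VB6 against 674 to 711 in vehicle, and 7 of 9 tested visceral endoderm and hepatic markers were higher (2359 to 2754 against 2037 to 2609 CPM). Their part in the member values was not tested. On counts the smallest p in each class went to Bcat2 (0.73 ± 0.08), Got1 (0.49 ± 0.07) and Gpt (0.89 ± 0.18) among aminotransferases, Gad1 (−1.03 ± 0.26) among decarboxylases, and Gcat (0.83 ± 0.10) and Alas1 (0.48 ± 0.09) among synthases. Shmt2 was at 0.46 ± 0.10. Called too were Scly (0.56 ± 0.09), Cbs (0.44 ± 0.11) and Nfs1 (0.31 ± 0.08) in sulfur and selenium transfer, where Cth was called lower (−0.23 ± 0.07). Among phosphorylases Pygb (0.58 ± 0.07) and Pygl (0.45 ± 0.13) were called. With the correction Scly was at 0.09, Gcat at 0.16 and Cth at −0.03, none of them called. With the correction, 16 members were called, 8 higher and 8 lower, and of all genes called in that fit 44.3% were higher. Of the 24 calls on counts, 10 held, 6 higher and 4 lower. Got2 (−0.27), Gldc (−0.16) and Shmt2 (−0.20) were called lower after correction though higher on counts, and Odc1, at −0.08 ± 0.05 and not called on counts, was at −0.41 and called. Gpt, Kyat1, Alas1 and Nfs1 also took the opposite sign, without a call, while on the log2(TPM + 1) scale Got1, Got2, Gpt2, Psat1, Oat, Gldc, Cbs and Scly did so.

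Calls at day 5 that held in every alternative run on the member, other than leaving out single libraries, numbered 6, with 8 alternatives for each but Tha1, which had 5. Bcat2 was higher (0.22 corrected), and Tha1 was higher, with 30 counts in the 3 VB6 libraries and 7 in vehicle, a ratio of 4.21 (95% Clopper-Pearson interval 1.81 to 11.4). Lower were Gad1 (−1.03 ± 0.26, −1.0 corrected), Kyat3 (−0.46 ± 0.14, −0.58 corrected), Phykpl (−0.30 ± 0.08, −0.23 corrected) and Sgpl1 (−0.19 ± 0.06, −0.18 corrected). Tha1 had no corrected value, because the correction needs a length that could not be derived for it, and it did not pass the filters of the stricter fit and of the fit on the compared groups alone.

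At day 7, where the VB6 libraries have the shorter fragments, 12 of 34 were called, 4 higher and 8 lower, with 36.5% of all genes called (18.6% higher and 17.9% lower). Psat1 (0.29 ± 0.06, 0.23 corrected) and Sgpl1 (0.32 ± 0.06, 0.22 corrected) were higher and Bcat2 was lower (−0.52 ± 0.09, −0.31 corrected) in every alternative other than leaving out single libraries. Gcat (−0.67 ± 0.10, −0.38 corrected) and Sptlc2 (0.19 ± 0.05, 0.08 corrected) were called among synthases. On the log2(TPM + 1) scale Gcat was at −0.0057 and not called (limma adjusted p = 0.983). Cbs (−0.58 ± 0.13, −0.58 corrected), Got1 (−0.34 ± 0.07, −0.23 corrected), Shmt1 (−0.23 ± 0.06, −0.25 corrected), Odc1 (−0.14 ± 0.05, −0.04 corrected) and Shmt2 (−0.30 ± 0.10, −0.03 corrected) were lower on counts but above 0 on the log2(TPM + 1) scale. Tha1 was higher again, at 25 against 10 counts (ratio 2.49, 95% Clopper-Pearson interval 1.15 to 5.80; adjusted p = 0.0433), but the call was lost with DESeq2 (adjusted p = 0.10), with no filter (0.203) and with the replicate block (0.0518) and held in 2 of 5 alternatives. Gpt was lower (−0.64 ± 0.17, −0.12 corrected). With the correction Sptlc2, Odc1, Shmt2 and Gpt were no longer called. After correction 9 members were called, 3 higher and 6 lower, among them 7 of the 12 calls on counts, 2 higher and 5 lower. Of all genes called in the corrected fit, 51.0% were higher. Of 7 pluripotency markers, 4 were lower with VB6 at day 7 and 0 higher (258 to 305 against 400.4 to 442 CPM), and of 9 visceral endoderm and hepatic markers 4 were higher and 3 lower; their part in the member values was not tested.

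**Figure D4:**
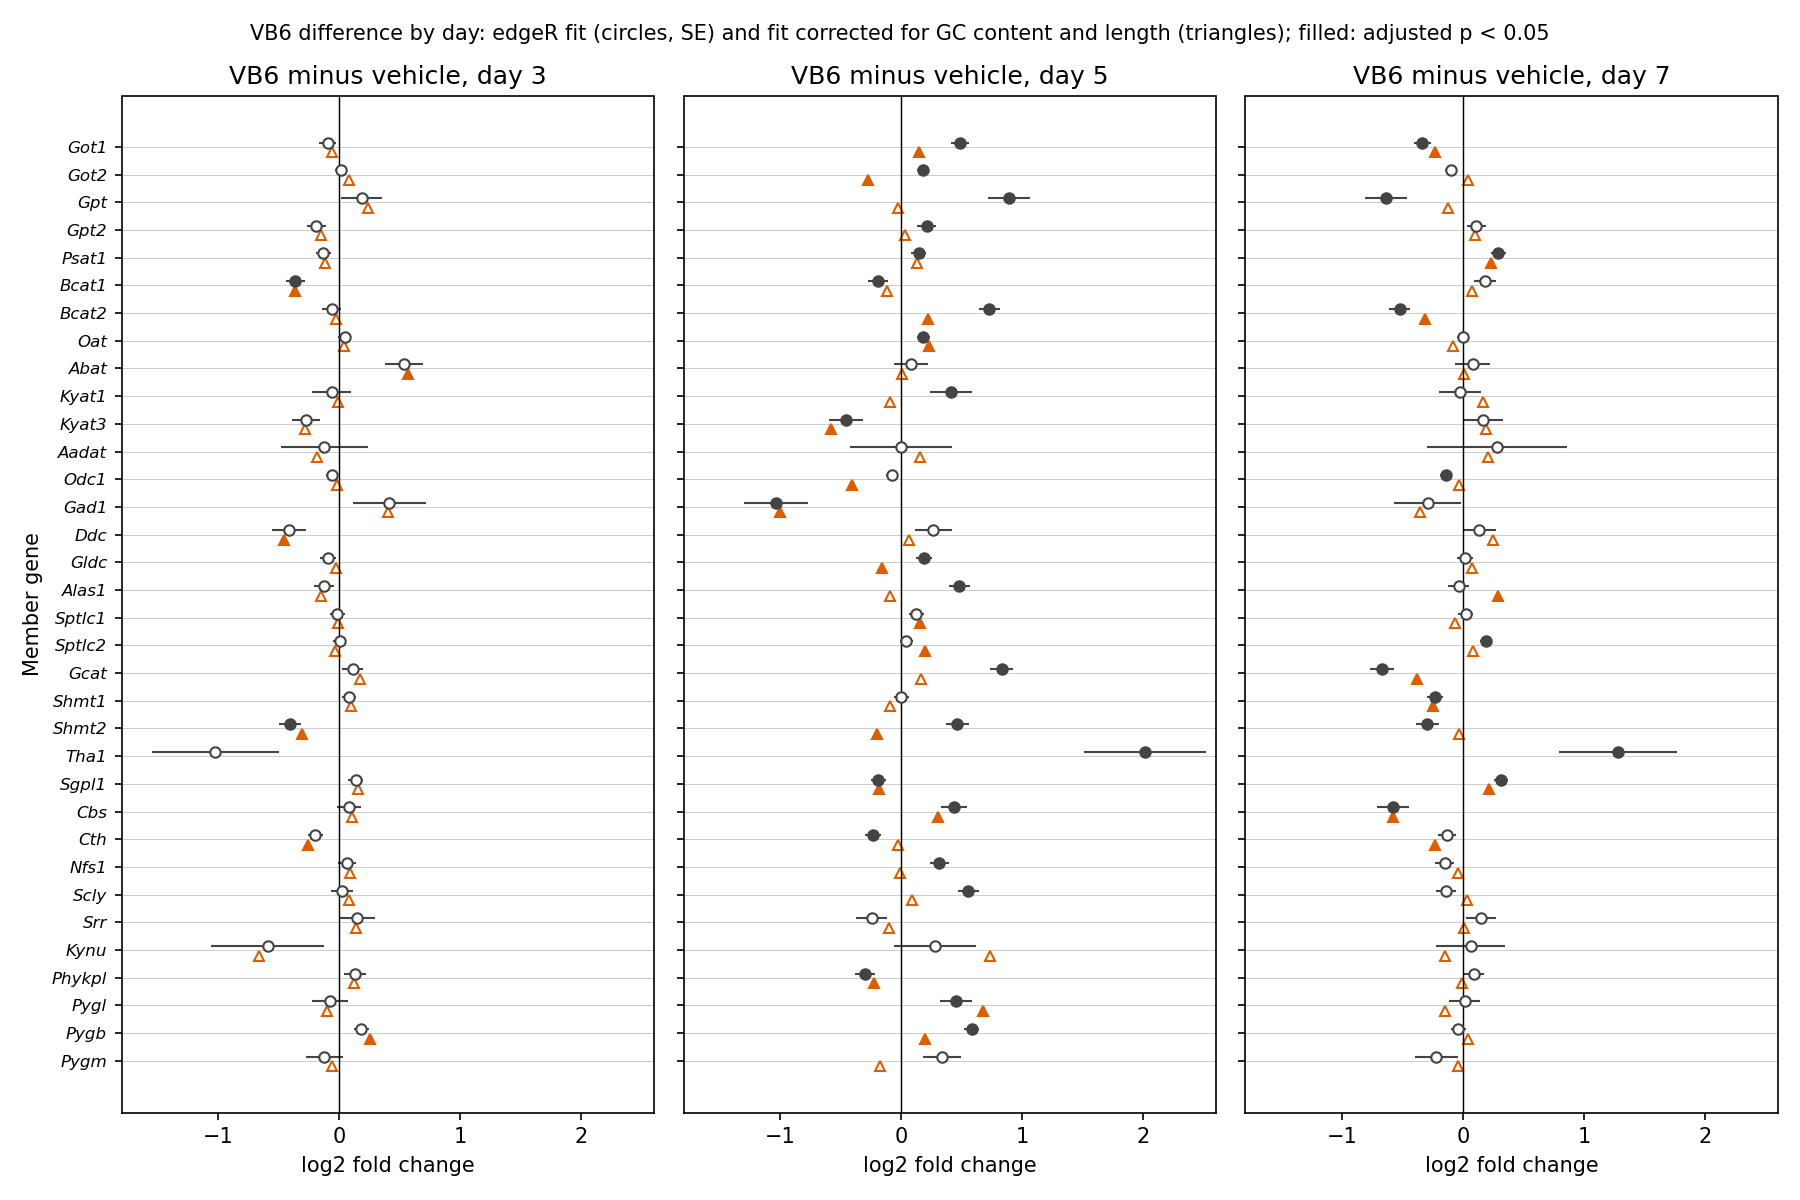
Log2 fold change of each tested member with VB6 against vehicle at days 3, 5 and 7, from the fit on counts (circles, bars are the SE) and from the fit corrected for GC content and length (triangles); filled symbols have an adjusted p under 0.05. At day 5 most circles lie above 0 and many triangles lie nearer to 0 or on the other side, and Bcat2 lies above 0 at day 5 and below 0 at day 7 in both fits.

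Of the 9 members called at both days 5 and 7, 7 had opposite signs: Bcat2, Cbs, Gcat, Got1, Gpt and Shmt2 were higher at day 5 and lower at day 7, and Sgpl1 the reverse. Over all genes, 96.1% of the 5549 called at both days had opposite signs. After correction 4 members were called at both days, Bcat2, Cbs, Got1 and Sgpl1, each with opposite signs as on counts; Gcat was not called at day 5, Gpt at neither day, and Shmt2 was called lower at day 5 and not called at day 7. Psat1 and Tha1 were higher at both days on counts. The Psat1 difference at day 5 (0.14 ± 0.06, edgeR adjusted p = 0.0471) held in only 1 of 8 alternatives. It was not called after correction, and on the log2(TPM + 1) scale Psat1 was called lower with VB6 (−0.42, limma adjusted p = 0.000111). The Tha1 difference at day 7 was not called in the 3 alternatives named above. A test of whether the VB6 difference varied between the 3 days called 23 of 34 members, against 60.0% of all genes, and 17 of the 23 were also called after correction.

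Averaged over the 3 days, 3 members were called, 1 higher and 2 lower, where 11.7% of all genes were called (6.58% higher and 5.16% lower). This mean includes days 5 and 7, where VB6 cannot be told apart from fragment length. Cth was lower with VB6 (−0.19 ± 0.04, adjusted p = 0.00407), with a mean below that of vehicle at all 3 days, and stayed called in all 26 fits run on it, between −0.21 and −0.17. By day, the corrected difference of Cth was −0.26 at day 3 and −0.24 at day 7, both called. At day 5 it was −0.23 ± 0.07 on counts but −0.03 and not called with the correction. Pygb was higher by 0.24 ± 0.04 (adjusted p = 0.000287; 0.16 corrected) and lost its call on the log2(TPM + 1) scale. Its difference was 0.18 at day 3 (not called, 0.26 and called with the correction) and 0.58 ± 0.07 at day 5 (0.19 corrected), and was not called at day 7. In the test of whether the difference varied between days, Pygb had an adjusted p of 1.04e-05, and 0.0820 with the correction. Odc1 was lower (−0.09 ± 0.03, adjusted p = 0.0363) and kept its call in 14 of 26 fits, at −0.16 (adjusted p = 0.00163) with the correction.

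Paralogous enzymes of different compartments changed their balance, described here by TPM ratios, which set levels per length. Bcat1 to Bcat2 was 1.12 ± 0.0230 in ES cells, 0.834 ± 0.0684 in vehicle day 3 and 0.392 ± 0.0110 in vehicle day 7. With VB6 the Bcat1 to Bcat2 ratio was 0.665 ± 0.0315 at day 3 and 0.384 ± 0.0171 at day 5, where vehicle held 0.873 ± 0.0917, and 0.629 ± 0.126 at day 7. The vehicle day 5 and VB6 day 7 ratios are from the short-fragment libraries, so at these days VB6 cannot be told apart from fragment length. With the correction, the day 5 log2 difference was −0.12 for Bcat1, not called, and 0.22 for Bcat2. Got1 to Got2 went from 0.850 ± 0.0290 in ES cells to between 0.519 ± 0.0138 and 0.641 ± 0.0391 in the other 6 groups, all of whose libraries lay below those of ES. The ratio of Kyat3 to Kyat1 was 3.43 ± 0.634 in ES cells and 1.22 ± 0.170 in vehicle day 7. Summed over the 37 members, TPM was 2128 ± 196 in ES cells and 1435 ± 56.9 in vehicle day 7.

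**Figure D5:**
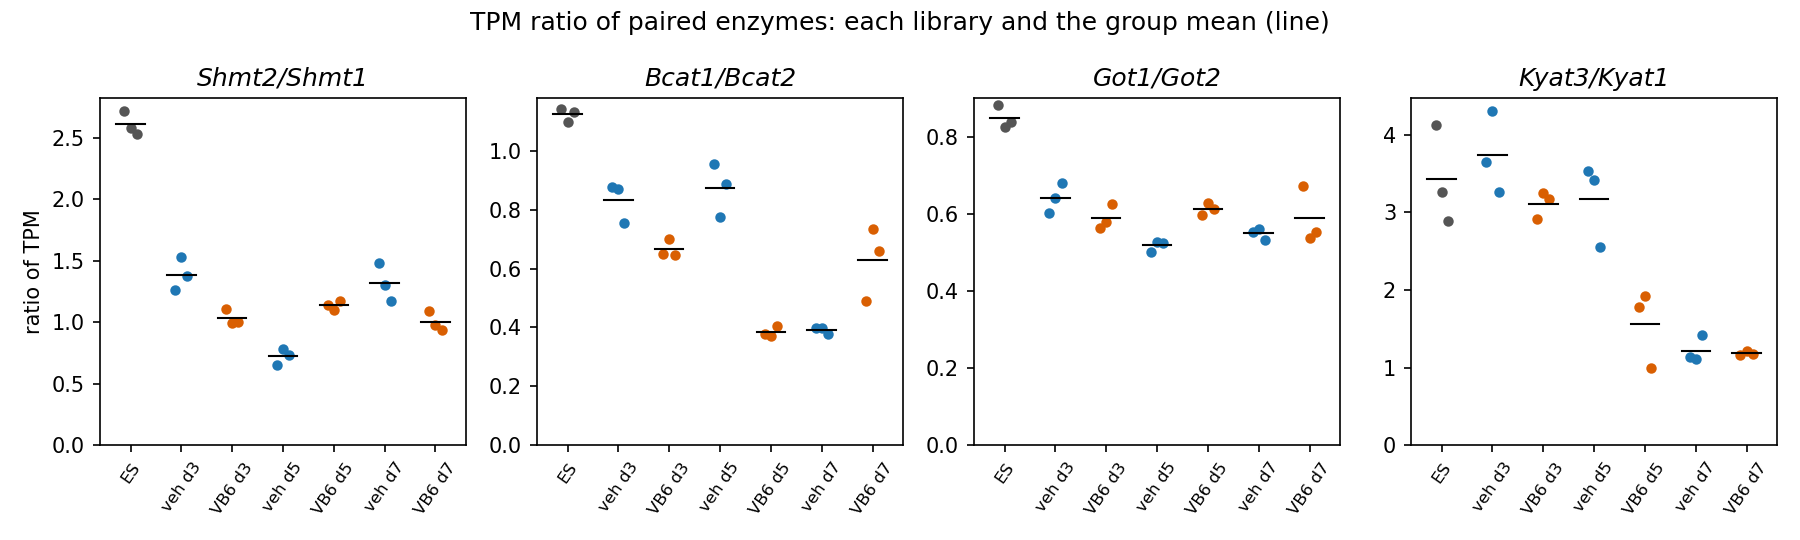
TPM ratios of paired enzymes in each library (points, grey ES, blue vehicle, orange VB6) with the group mean (line); each axis starts at 0. Shmt2/Shmt1 and Got1/Got2 are highest in ES cells, and Bcat1/Bcat2 has means of 0.384 in VB6 day 5 and 0.392 in vehicle day 7.

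Other genes of the same pathways, from a list of 71 of which 69 were tested, moved about equally in both directions: 25 rose and 27 fell from ES to vehicle day 3, and 28 rose and 25 fell from there to day 7 (all genes: 33.1 and 31.8%, then 34.3 and 33.1%). The partners with the smallest p in the first step were Degs1, which makes ceramide (1.57 ± 0.07), Pgm2, a phosphopentomutase that also acts on glucose phosphates (−1.25 ± 0.06), and Amd1, which supplies the aminopropyl donor of polyamine synthesis (1.27 ± 0.07). In the second step they were Srm, spermidine synthase (−1.58 ± 0.06), the ceramide synthase Cers2 (1.21 ± 0.06) and sulfite oxidase, Suox (2.14 ± 0.11). Of 9 polyamine genes, 5 rose and 3 fell to vehicle day 3, where Odc1 rose. All 7 called sphingolipid genes of 12 rose between vehicle days 3 and 7, where Sgpl1 and Sptlc2 rose, and 6 of 8 methionine and transsulfuration genes fell with 1 higher, where Cbs and Cth fell. All 5 branched-chain genes were called there, 4 lower and 1 higher.

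With VB6, 10 of the 69 partners were called at day 3, where 4.26% of all genes were, 4 higher and 6 lower, with Kdsr of sphingolipid synthesis at 0.38 ± 0.07, the mitochondrial folate enzyme Mthfd2, which acts after Shmt2, at −0.37 ± 0.07 and Bckdha, the dehydrogenase subunit that acts after the branched-chain aminotransferases, at −0.39 ± 0.09. At day 5, 50 were called, 27 higher and 23 lower, against 56.7% of all genes, and at day 7, 35, 16 higher and 19 lower, against 36.5%. Oaz1, the antizyme that sends ornithine decarboxylase to degradation, had the smallest p at both days and opposite signs (0.85 ± 0.06 and −0.76 ± 0.06). A second list of 16 pyridoxal phosphate users and relatives had 10 tested genes. Of these, 5 fell and 3 rose from ES to vehicle day 3 (64.9% of all genes called). They were led by Azin2 (−2.40 ± 0.11), an antizyme inhibitor related to ornithine decarboxylase and not a known decarboxylase itself. The taurine enzyme Csad (−1.26 ± 0.09) and histidine decarboxylase, Hdc (2.51 ± 0.26), came next. With VB6, 0 of these 10 were called at day 3 in edgeR's test (0 at an unadjusted p under 0.05), 6 at day 5 and 3 at day 7 (4.26, 56.7 and 36.5% of all genes).

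Of 7 genes that make or handle the cofactor itself, 6 fell from ES to vehicle day 3 and 0 rose, where 31.8% of all genes fell. Between vehicle days 3 and 7, Alpl, the phosphatase that releases pyridoxal outside the cell, fell by 1.94 ± 0.11 and Pdxk, the kinase, fell by 0.91 ± 0.08. With VB6 at day 3, Alpl was the 1 called gene of the 7, lower at −0.59 ± 0.10 (adjusted p = 0.00215), and Pdxk was at −0.07 ± 0.08.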

How the data were processed

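RNA sequencing of E14 cells gave 21 libraries, grouped from the labels. The authors deposited expected counts (estimated per gene, not normalized), and TPM and FPKM values made from them. The genome build was mm10, per the submitters' processing notes. Not given in the sources used here: aligner, counting method and annotation version. The labels name total RNA, while their protocol also describes enrichment of small RNAs, which leaves the library preparation uncertain.

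The test had been planned for whole counts. The deposited expected counts were rounded, which changed their sum by 0.000245%, without a change of test. Genes passing filterByExpr over the 7 groups (18901) were normalized by TMM and tested with edgeR's quasi-likelihood test (edgeR 4.0.16, limma 3.58.1, R 4.3.3) in 1 fit over all libraries, with Benjamini-Hochberg adjustment over all genes. The script was tested on simulated data. CPM uses TMM library sizes, ± is the SD for levels and the SE for log2 fold changes, and 3 counts is the most that a count of 0 allows, for counting error only. The enzymes, the reaction classes and the other lists were chosen with earlier results of these data known, and 1 gene of the lists is not reported here. Values in every library are given for the 3 members per class with the smallest p over the 7 groups and at least 1 CPM in the highest group, and for members called in the same direction with VB6 at 2 or more days. In each comparison, up to 3 called members per class were to be named, and likewise up to 3 partners and other enzymes. Some further members were named beside them.

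Fragment length was derived from gene length, the deposited FPKM and the counts. The corrected fit used a spline with 5 degrees of freedom each for GC content and length as a per-library offset and covered 15279 genes. The share of all genes called in the corrected fit, or at an unadjusted p, is not given here. Member counts from these therefore cannot be set against the whole table. Alternatives were DESeq2 1.42.0, its size factors, limma on log2(TPM + 1) of the deposited TPM, no filter, at least 50 counts in 3 libraries, only the groups compared, a replicate block and leaving out each library. A fit without the vehicle day 5 and VB6 day 7 libraries was added after seeing the data. Gene positions and overlaps came from GENCODE M21 (mm10), and promoter windows from RefSeq. Libraries of 1 group differed from each other by more than counting error (chi-square per gene of 2.11 to 13.5).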

Additional observations from a re-analysis of the deposited data

Results flagged for a closer look

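The VB6 difference varied between days 3, 5 and 7 in edgeR's interaction test for 23 members, against 60.0% of all genes called. The shortest fragments lie in the vehicle arm at day 5 and in the VB6 arm at day 7, and their part in this variation cannot be told apart from that of VB6. Adjusted p-values were 6.29e-07 for Got1, 0.00602 for Got2, 4.64e-05 for Gpt, 0.00939 for Gpt2, 0.000527 for Psat1, 0.00117 for Bcat1, 2.17e-08 for Bcat2 and 0.0389 for Kyat3 among aminotransferases. The decarboxylases Gad1, Ddc and Gldc had 0.0107, 0.0122 and 0.0356, and the synthases Alas1 and Gcat had 0.000330 and 1.06e-08. In aldol cleavage and hydroxymethyl transfer the values were 0.00908 for Shmt1, 7.34e-06 for Shmt2, 0.00270 for Tha1 and 6.36e-05 for Sgpl1. Sulfur and selenium transfer gave 8.07e-05 for Cbs, 0.00282 for Nfs1 and 6.73e-05 for Scly. The last were Phykpl at 0.00506, Pygl at 0.0413 and Pygb at 1.04e-05. After the correction for GC content and length, Gpt (adjusted p = 0.384), Gpt2 (0.0667), Nfs1 (0.415), Scly (0.866) and Pygb (0.0820) no longer passed, and Tha1 had no corrected value.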

How the results depend on the processing

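Counts of members called stayed within 1.5 times in all alternatives for the 3 course comparisons, for VB6 at days 5 and 7, and for the tests over days and over groups. At day 3 both calls were lost on the log2(TPM + 1) scale, where 1 other member was called (Alas1), and 6 members were called with the correction. For the mean over days, 6 were called with the correction against 3. Leaving out 1 library gave 0 to 2 calls at day 3, 20 to 22 at day 5, 9 to 12 at day 7, 2 to 5 for the mean (5 without the third VB6 day 7 library), 26 to 28 for vehicle day 3 against ES, 29 to 30 for vehicle day 7 against day 3 and 24 to 27 for VB6 day 5 against day 3. The day 3 count was 0 without the second vehicle library or the first VB6 library and 1 without the third VB6 library.

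Of 128 called member differences, 122 stayed called in the same direction with DESeq2, 116 with no filter, 92 on the log2(TPM + 1) scale and 102 of 124 with the correction. On the TPM scale the log2 difference at day 5 reversed for Got1 (−0.0668), Got2 (−0.31), Gpt2 (−0.0577), Psat1 (−0.42), Oat (−0.0622), Gldc (−0.10), Cbs (−0.59) and Scly (−0.0344), at day 7 for Got1 (0.30), Odc1 (0.10), Shmt1 (0.42), Shmt2 (0.0385) and Cbs (0.0372), and from vehicle day 3 to day 7 for Pygm (0.19). With the correction it reversed at day 5 for Got2 (−0.27), Gpt (−0.0239), Kyat1 (−0.10), Gldc (−0.16), Alas1 (−0.0915), Shmt2 (−0.20) and Nfs1 (−0.00819), and from VB6 day 3 to day 5 for Pygb (−0.0625). The cause was not tested. On the TPM scale the median gene shifted by −0.24 at day 5, 0.24 at day 7, 0.13 from vehicle day 3 to day 7 and 0.15 from VB6 day 3 to day 5, and with the correction by −0.16 at day 5 and −0.11 from vehicle day 3 to day 7. Of all calls, 20.6, 31.1, 82.9, 39.4 and 67.5% were higher on the TPM scale at days 3, 5 and 7, for the mean and from VB6 day 3 to day 5, against 34.9, 55.1, 51.1, 56.0 and 53.1%, and with the correction 44.3% at day 5 and 38.5% for the mean.

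Replicate numbers did not pair the libraries (correlations of deviations from −0.028 to 0.078). With the replicate number as a block, 125 of the 128 calls held and 3 did not. Without the vehicle day 5 and VB6 day 7 libraries, 2, 29, 31 and 26 members were called at VB6 day 3 and in the course comparisons. Low counts limit Tha1, Aadat, Kynu, Gad2, Alas2 and Sptlc3.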
